A study of Mus musculus with 10 samples.

Results

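The miR-200 family of the mouse comprises the 5 hairpins Mir200b, Mir200a, Mir429, Mir200c and Mir141. Its members were taken as named, and all reads of 18 to 26 nt whose first 18 nt matched 1 of these hairpins exactly in sense, with up to 2 later mismatches, were summed per mature arm. Of the 10 arms that the 5 hairpins can give, 8 had reads, among 755 arms with a read from 1174 hairpins. Levels are given as RPM, the reads of an arm per 1000000 reads of its library's file. The 10 small RNA libraries analysed here were made from cells sorted from Day 6 embryoid bodies (EBs), the aggregates in which mouse primordial germ cell-like cells (mPGCLCs) arise from mESC-derived epiblast-like cells under BMP4, BMP8a/b, LIF, SCF and EGF.

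Each of the 5 groups held 2 replicates. E14 mPGCLC and E14 non-PGCLC came from E14 mESCs, which are of an Ola substrain and carry no reporter. BG5 mPGCLC and BG5 non-PGCLC came from BG5 mESCs, which carry Blimp1-GFP on a mixed background that includes C57BL/6J and DBA. SGET non-PGCLC came from SGET mESCs, which carry Stella-GFP and Esg1-tdTomato on a mixed background that includes B6CBA, and the mPGCLCs of SGET were not analysed here. All lines are male, the non-PGCLC cells are the surrounding EB cells, and the labels name no deletion or further treatment in any group. The study's methods give Ssea1 and Cd61 as the sort markers of E14 mPGCLCs and Ssea1 with Blimp1-GFP for BG5, whereas the labels describe a single gate on Stella-GFP and Esg1-tdTomato for every sample. The study gives that gate for SGET alone, and E14 and BG5 as described do not carry these reporters. Cell line, strain background and sort gate therefore cannot be told apart, and each line is 1 established culture. The labels call the samples duplicates without naming separate cultures, so p-values measure the spread between these libraries.

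MicroRNAs of this family are abundant in epithelial cells, where they repress the transcription factors Zeb1 and Zeb2, which in turn repress the E-cadherin gene and the miR-200 loci. Loss of the family accompanies epithelial-to-mesenchymal transition, and its members are also expressed in pluripotent and germ line cells. A mature miRNA is cut from 1 arm of a hairpin, the 5p or the 3p arm, and its bases 2 to 8, the seed, pair with target mRNAs.

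The sequences show how close the members are, which decides whether their reads can be told apart. Hairpins are from RefSeq on GRCm38.p6, all 5 of 5 matched, and their annotated mature arms are in capitals, with the 5p arm first. All lie on the minus strand.
Mir200b, chr4:156055681-156055750: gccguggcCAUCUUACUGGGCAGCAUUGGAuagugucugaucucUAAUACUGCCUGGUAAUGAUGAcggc
Mir200a, chr4:156054896-156054985: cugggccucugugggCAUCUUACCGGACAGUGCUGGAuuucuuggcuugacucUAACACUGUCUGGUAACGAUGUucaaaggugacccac
Mir429, chr4:156053905-156053987: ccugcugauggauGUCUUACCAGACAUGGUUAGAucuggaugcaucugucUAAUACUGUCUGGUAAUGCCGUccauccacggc
Mir200c, chr6:124718322-124718390: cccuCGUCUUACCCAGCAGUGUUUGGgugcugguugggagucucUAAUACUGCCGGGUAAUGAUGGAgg
Mir141, chr6:124717914-124717985: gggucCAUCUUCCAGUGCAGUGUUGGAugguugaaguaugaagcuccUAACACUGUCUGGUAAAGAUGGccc

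The 5 hairpins form 2 clusters. Mir200b, Mir200a and Mir429 span 1846 bases of chromosome 4. In the GENCODE vM21 annotation all 3 lie within an intron of the protein-coding gene Ttll10. In the overlapping transcript gene Gm13648, Mir200b and Mir200a are intronic and Mir429 is within an exon. Mir200c and Mir141 span 477 bases of chromosome 6 within an intron of the antisense RNA gene Gm15884, and Mir141 also overlaps an exon of Gm29008 in part.

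The 3p arms carry 1 of 2 seeds, which cut across the clusters. They are shown here with the seed in capitals.
Mir200b-3p: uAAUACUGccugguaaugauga
Mir200c-3p: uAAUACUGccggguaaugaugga
Mir429-3p: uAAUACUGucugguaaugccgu
Mir200a-3p: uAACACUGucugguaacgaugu
Mir141-3p: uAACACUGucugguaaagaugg
Counted from the 5′ end, the seeds differ by U4C from Mir200b-3p to Mir200a-3p. No other mature mouse miRNA among the 1738 RefSeq entries carried either seed. Over their first 22 bases, Mir200b-3p and Mir200c-3p differ at U11G and A22G, and Mir200a-3p and Mir141-3p differ at C17A and U22G. Each pair differs within the 18 bases that had to match exactly, and 0 reads were shared between the 5 hairpins and any other.

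The libraries held 7421061 to 14444567 reads, of which 14.97% to 34.5% matched a miRNA arm. The family had 226021 reads in all. Among its distinct sequences, counted per library, 579 had 1 to 5 reads, 43 had 6 to 20 and 317 had over 20, and the median of the last class was at least 73.0 reads in every library. Most reads thus came as repeats of few sequences, and without molecular identifiers abundant molecules and PCR copies cannot be told apart. A count of 100 may therefore stand for very few RNA molecules.

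The family was led by Mir200c and Mir200b. Over all libraries pooled, Mir200c gave 47.2% of the family's reads and Mir200b 40.1%, followed by Mir200a with 6.40%, Mir429 with 5.40% and Mir141 with 0.868%. The order differed between groups. In BG5 mPGCLC Mir200b led with 48.6% ± 0.367 (SD, n = 2) against 37.9% ± 2.65 for Mir200c, and in SGET non-PGCLC Mir200c held 57.5% ± 0.495 and Mir200b 28.9% ± 6.10. In SGET non-PGCLC the mean share of Mir429, 7.20% ± 3.29, was above that of Mir200a, 4.55% ± 2.08, a difference within their spread. The 3p arms of Mir200b, Mir200c and Mir429, which share a seed, held 90.9% of the reads over all libraries, with 78.2% as the lowest share in any library. The 5p arms held 2.37% of the reads. Wherever a hairpin had reads, those of its 3p arm were the more numerous, apart from Mir141 in E14 non-PGCLC replicate 1, where a loop fragment was the main read.

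The summed level differed between the groups. It was 1901 and 1984 RPM in the replicates of E14 mPGCLC, 1114 and 1133 RPM in E14 non-PGCLC, 4337 and 3172 RPM in BG5 mPGCLC, 1399 and 1386 RPM in BG5 non-PGCLC, and 3031 and 2693 RPM in SGET non-PGCLC. Both mPGCLC groups were above their own non-PGCLC cells without overlap. From high to low the group means were 3755 ± 824 RPM (SD, n = 2) in BG5 mPGCLC, 2862 ± 239 in SGET non-PGCLC, 1942 ± 58.9 in E14 mPGCLC, 1392 ± 9.10 in BG5 non-PGCLC and 1123 ± 13.7 in E14 non-PGCLC. No neighbours in this order overlapped in their replicates, and SGET non-PGCLC lay above E14 mPGCLC, so the order did not follow cell type across lines.

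**Figure D1:**
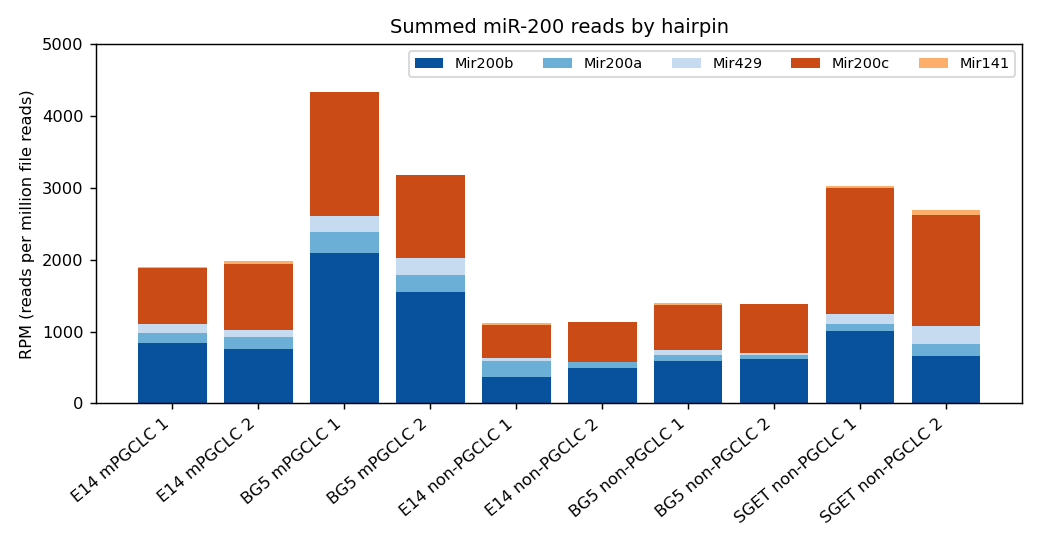
Stacked bars give the RPM of each miR-200 hairpin (both arms) in the 10 libraries. The bars of BG5 mPGCLC and SGET non-PGCLC are the tallest, and E14 and BG5 non-PGCLC stay between 1114 and 1399 RPM.

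The denominator changed the E14 result. The mPGCLC mean was 1.73 times the non-PGCLC mean in E14 and 2.70 times in BG5 by RPM. As a share of miRNA reads the family was 0.590% ± 0.0539 (SD, n = 2) in E14 mPGCLC and 0.559% ± 0.106 in E14 non-PGCLC, a ratio of 1.05 with overlapping replicates. In BG5 it was 2.06% ± 0.0867 in mPGCLC and 0.537% ± 0.150 in non-PGCLC, a ratio of 3.84. In SGET non-PGCLC it was 0.922% ± 0.132. Members of the miR-290 cluster, known for high levels in ESCs, summed to 223933 and 196281 RPM in E14 mPGCLC against 134789 and 93158 RPM in E14 non-PGCLC, so they took a large part of the E14 miRNA reads. Their part in the E14 ratio was not tested.

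Over all libraries pooled the 2 clusters held 51.9% and 48.1% of the family's reads, but the split varied between groups. The chromosome 4 cluster held 62.1% ± 2.65 (SD, n = 2) of the family's reads in BG5 mPGCLC, 55.0% ± 4.99 in E14 mPGCLC, 53.8% ± 4.94 in E14 non-PGCLC and 51.5% ± 1.82 in BG5 non-PGCLC. In SGET non-PGCLC it held 41.2% and 40.2% in the 2 replicates, below each of the other 8 libraries, whose lowest share was 50.2%. The mPGCLC to non-PGCLC ratio of RPM means was 3.23 for the chromosome 4 cluster and 2.13 for the chromosome 6 cluster in BG5, and 1.76 and 1.69 in E14.

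**Figure D2:**
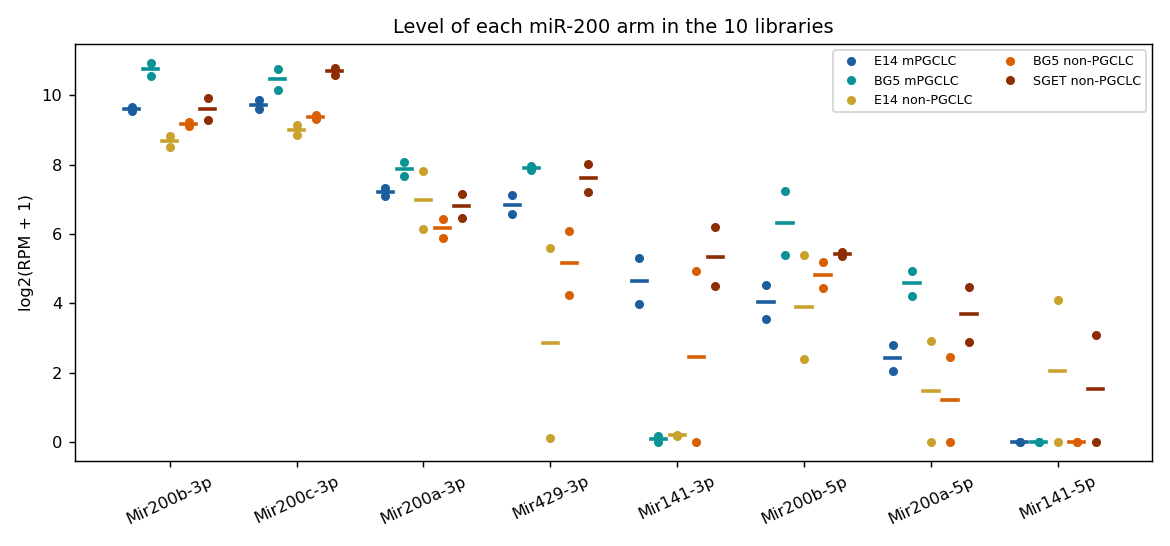
Each dot is the log2(RPM + 1) of 1 arm in 1 library and each short line the mean of the group's 2 libraries. Mir200b-3p and Mir200c-3p lie highest in every group, and Mir141-3p is near 0 in BG5 mPGCLC and E14 non-PGCLC.

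The comparison of mPGCLCs with the surrounding EB cells asked which arms mark the germ cell-like fraction. Mir200b-3p and Mir200c-3p were higher in mPGCLCs over the mean of the 2 lines, and no member was lower. In this contrast 2 of the 8 arms tested passed an adjusted p of 0.05, beside 14.5% of all 558 arms tested, of which 43 were higher and 38 lower. The members' median log2 change was 1.17, beside 0.17 over all arms. It takes in Mir200a-5p (2.09, SE 2.60), Mir200b-5p (0.85, SE 1.13) and Mir141-3p (0.17, SE 5.05), whose changes were smaller than their SE. It also takes in Mir141-5p, counted almost wholly from a loop fragment described below.

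Mir200b-3p, the most abundant arm of the chromosome 4 cluster, was at 814 and 751 RPM in E14 mPGCLC and at 365 and 453 RPM in E14 non-PGCLC. It was at 1945 and 1507 RPM in BG5 mPGCLC and at 550 and 595 RPM in BG5 non-PGCLC. In both lines every mPGCLC value lay above every non-PGCLC value by RPM, and SGET non-PGCLC, at 964 and 623 RPM, spanned the E14 mPGCLC values. Per 1000000 miRNA reads the E14 values were 2362 and 2376 in mPGCLC against 1584 and 2538 in non-PGCLC, which overlap. On the fitted scale its change was 1.52 (log2, SE 0.26, edgeR adjusted p = 0.000202). By level it was between rank 18 and rank 98 among all arms of a library, and it stood at ranks 18 and 20 in the BG5 mPGCLC libraries.

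Mir200c-3p, the main product of the chromosome 6 cluster, was at 774 and 925 RPM in E14 mPGCLC and at 459 and 562 RPM in E14 non-PGCLC. It was at 1727 and 1144 RPM in BG5 mPGCLC and at 630 and 690 RPM in BG5 non-PGCLC. The 2 cell types were again apart in each line by RPM, but per 1000000 miRNA reads E14 mPGCLC, at 2246 and 2927, lay within the 1993 and 3148 of E14 non-PGCLC. Its level in SGET non-PGCLC, 1754 and 1539 RPM, reached that of BG5 mPGCLC. Its fitted change was 1.17 (log2, SE 0.23, edgeR adjusted p = 0.000883).

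Mir429-3p, which shares its seed with both, was at 138 and 94.0 RPM in E14 mPGCLC, and E14 non-PGCLC had 47.3 RPM in replicate 1 and a single read in replicate 2. It was at 230 and 247 RPM in BG5 mPGCLC and at 67.2 and 17.9 RPM in BG5 non-PGCLC. These groups did not overlap either. Its change of 2.81 (log2, SE 0.97) missed the threshold (edgeR adjusted p = 0.0601), and the replicates of the non-PGCLC groups were far apart. It passed under 13 of 17 alternatives, among them DESeq2 (adjusted p = 0.0361; 3 members and 25.4% of all arms passed there), the fit without the low-count filter (0.000315) and all 10 fits that left out 1 library (changes of 2.30 to 6.79, adjusted p from 3.06e-10 to 0.0161), and did not pass with total reads, RLE factors, whole-length matches or only the samples compared. Mir200b-3p, Mir200c-3p and Mir429-3p were the 3 of 8 members above non-PGCLC without overlap in both lines by RPM, beside 7.17% of all arms. By share of miRNA reads Mir429-3p was the 1 member to do so, beside 3.76% of all arms.

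Mir200a-3p, the main product of the other seed group, was at 135 and 159 RPM in E14 mPGCLC, within the 222 and 69.2 RPM of E14 non-PGCLC. In BG5 it was at 267 and 203 RPM in mPGCLC and at 85.8 and 58.0 RPM in non-PGCLC, without overlap. Its mean change of 1.17 (log2, SE 0.50) did not pass (edgeR adjusted p = 0.147).

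Mir141-3p, its seed partner from the chromosome 6 cluster, was present as few distinct sequences. It had 123 and 309 reads in E14 mPGCLC, 1 and 2 in E14 non-PGCLC, 1 and 0 in BG5 mPGCLC, 280 and 0 in BG5 non-PGCLC, and 310 and 708 in SGET non-PGCLC. The 280 reads of BG5 non-PGCLC replicate 1 were copies of 1 sequence. With 0 reads, up to 3 reads, or 0.293 RPM in BG5 mPGCLC replicate 2, would be allowed by counting error alone. Its mean cell-type change (log2 0.17, SE 5.05, edgeR adjusted p = 0.9998) averaged opposite changes in the 2 lines. By edgeR these were 7.26 in E14 (log2, SE 3.804, adjusted p = 0.467) and -6.92 in BG5 (SE 3.77, adjusted p = 0.362), and neither passed. DESeq2 called both, at 7.20 (adjusted p = 0.0354) and -7.27 (adjusted p = 0.0347). Without BG5 non-PGCLC replicate 1, which held the 280 copies, the BG5 change by edgeR was 2.52 (adjusted p = 0.987). With whole-length matches only, which leave out those copies, it was 0.0, beside 11.37 in E14 and 5.68 as the mean (adjusted p of at least 0.410). The counts of this arm were thus uneven, although Mir200c-3p from the same cluster had at least 3405 reads in every library.

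The 5p arms were scarce. Mir200b-5p was at 21.996 and 10.8 RPM in E14 mPGCLC, 4.31 and 41.2 RPM in E14 non-PGCLC, 150 and 41.2 RPM in BG5 mPGCLC, 35.8 and 20.8 RPM in BG5 non-PGCLC, and 43.5 and 40.2 RPM in SGET non-PGCLC. Mir200a-5p was at 3.14 and 5.97 RPM in E14 mPGCLC, 17.7 and 29.7 RPM in BG5 mPGCLC, and 6.46 and 21.4 RPM in SGET non-PGCLC. In E14 and BG5 non-PGCLC 1 library each had no read, and the other had 6.59 and 4.50 RPM. The E14 groups overlapped, and SGET non-PGCLC reached the BG5 mPGCLC range. Neither passed in any contrast of the cell types. Mir200c-5p and Mir429-5p had 0 reads in all 10 libraries, which allows up to 0.208 to 0.404 RPM per library.

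Of the reads counted for the 5p arm of Mir141, all but 3 were not the annotated 5p miRNA. They were 1 sequence of 19 nt that starts at base 28 of the hairpin, in the loop, found in E14 non-PGCLC replicate 1 (120 reads) and SGET non-PGCLC replicate 1 (104 reads). Both reads are shown to set the loop fragment against the arm.
Loop fragment: tggttgaagtatgaagctc
Annotated 5p read, 3 reads in SGET non-PGCLC replicate 1: catcttccagtgcagtgttgga

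**Figure D3:**
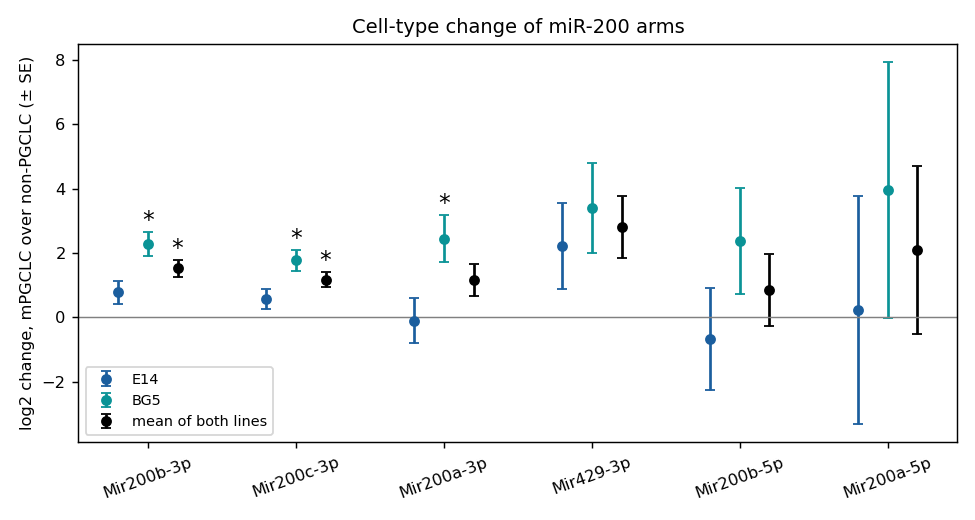
Dots give the fitted log2 change of mPGCLC over non-PGCLC with its SE for 6 arms, in E14, in BG5 and as the mean of both, and asterisks mark an edgeR adjusted p under 0.05. The Mir141 arms are not plotted.

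Within the lines the calls came from BG5. In E14, 0 of 8 members passed by edgeR, beside 2.87% of all arms. At an unadjusted p under 0.05 there was 1 of 8, Mir200b-3p, beside 71 of all 558 arms. DESeq2 called 1 other arm as higher, the sparse Mir141-3p described above, beside 3.41% of all arms that it called higher and 6.63% lower. The E14 change was 0.77 (log2, SE 0.36, edgeR adjusted p = 0.352) for Mir200b-3p and 0.57 (SE 0.32, adjusted p = 0.536) for Mir200c-3p. Without E14 non-PGCLC replicate 1, the E14 change of Mir429-3p was 10.18, against a group then left with 1 library and 1 read. The spread in that fit came from the other groups.

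In BG5, 3 of 8 members were higher and 0 lower by edgeR, beside 13.6% of all arms. DESeq2 called 4, these 3 as higher and Mir141-3p as lower, beside 21.1% of all arms. Mir200b-3p rose by 2.27 (log2, SE 0.37, edgeR adjusted p = 0.000130), Mir200c-3p by 1.78 (SE 0.33, adjusted p = 0.000502) and Mir200a-3p by 2.45 (SE 0.73, adjusted p = 0.0287). Mir429-3p had a change of 3.39 (SE 1.40) that did not pass (adjusted p = 0.153) and passed under 11 of 17 alternatives. The members' median was 2.32, beside -0.02 over all arms. These values exceed the RPM ratios because the TMM factors of the BG5 non-PGCLC libraries were 1.87 and 1.29, and total-read scaling moved the median of all arms by -0.72 in BG5. Under that scaling Mir200b-3p alone passed, 1 of 8 beside 12.2% of all arms, and Mir200c-3p had a change of 1.12 with an adjusted p of 0.0702. The call of Mir200a-3p was lost under 7 of 17 alternatives. These were total reads (adjusted p = 0.281), RLE factors (0.0528), whole-length matches (0.0573) and leaving out any 1 of the 4 BG5 libraries (0.0566 to 0.199).

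Whether the lines differed was tested as the BG5 effect minus the E14 effect. By edgeR 0 of 8 members passed, beside 5.56% of all arms, with 4 at an unadjusted p under 0.05, beside 82 of all 558 arms. DESeq2 called 2, beside 8.42% of all arms with a positive and 5.56% with a negative difference. They were Mir141-3p at -14.48 (adjusted p = 0.00104) and Mir200a-3p at 2.47 (adjusted p = 0.0472). The difference was 1.5 (log2, SE 0.50, edgeR adjusted p = 0.0999) for Mir200b-3p, 1.21 (SE 0.45, adjusted p = 0.154) for Mir200c-3p and 2.56 (SE 0.998, adjusted p = 0.182) for Mir200a-3p. Thus an edgeR call in BG5 and none in E14 does not show that the lines differ. Without BG5 non-PGCLC replicate 2 the count was 2, beside 6.94% of all arms in that fit, and it was 1 without E14 non-PGCLC replicate 1 (beside 5.47%) or without either SGET library (beside 7.89% and 7.98%).

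Between the mPGCLCs of BG5 and E14, 0 of 8 members passed by edgeR. Of all arms, 5.20% were higher in BG5 and 4.84% lower. At an unadjusted p under 0.05 there were 2 of 8 members, beside 101 of all 558 arms. DESeq2 called 1, Mir141-3p, as lower in BG5 (-9.06, adjusted p = 0.00720), beside 17.9% of all arms. The difference was 0.98 (log2, SE 0.36, edgeR adjusted p = 0.104) for Mir200b-3p and 0.58 (SE 0.32, adjusted p = 0.397) for Mir200c-3p. Without either BG5 non-PGCLC library 1 member passed, beside 9.77% and 10.5% of all arms. Among the non-PGCLC cells of the 3 lines, Mir200c-3p was the 1 member that passed (edgeR F test, adjusted p = 0.000665), beside 19.2% of all arms, and DESeq2 also called Mir200a-3p (adjusted p = 0.0488), beside 28.0% of all arms. The means of Mir200c-3p there were 1646 ± 152 RPM (SD, n = 2) in SGET, 660 ± 41.9 in BG5 and 511 ± 73.2 in E14. Leaving out SGET non-PGCLC replicate 2 or BG5 non-PGCLC replicate 2 brought this count to 3, and leaving out any other library brought it to 2, beside 16.3% to 22.4% of all arms in these fits.

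Some other epithelium-associated miRNAs rose as well. Of the 16 arms tested on that list, 4 were higher and 0 lower over both lines by edgeR, beside 14.5% of all arms, with a median log2 change of 1.21 beside 0.17 over all arms. They were Mir205-5p, a miRNA of stratified epithelia that also targets Zeb mRNAs, at 3.02 (SE 0.44, edgeR adjusted p = 3.95e-05), and Mir183-5p, Mir183-3p and Mir182-5p of the Mir183 cluster, known from sensory epithelia. Mir183-5p changed by 1.30 (SE 0.18) and Mir182-5p by 1.15 (SE 0.16). Mir183-3p changed by 5.05 (SE 0.62), made up of 0.042 in E14 and 10.05 in BG5, where the non-PGCLC libraries had 0.106 and 0.208 RPM. By DESeq2 7 were higher and 1, Mir34b-3p, was lower (-4.35, adjusted p = 0.0498), beside 25.4% of all arms. In E14 0 of the 16 passed by edgeR or DESeq2, beside 2.87% of all arms by edgeR. There 2 of the 16 had an unadjusted p under 0.05 by edgeR, beside 71 of all 558 arms. In BG5 4 of the 16 were higher by edgeR, beside 13.6% of all arms. In SGET non-PGCLC the summed level of this list, 33121 and 34777 RPM, was above that of all other libraries, which ranged from 4544 to 22173 RPM.

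Mesenchyme-associated miRNAs included arms that fell in mPGCLCs. Of 18 arms tested, 0 were higher and 6 lower over both lines by edgeR, beside 14.5% of all arms, with a median log2 change of -2.58. In BG5 5 were lower, beside 13.6% of all arms, with a median of -3.39. In E14 2 were lower, beside 2.87% of all arms, with a median of -0.31. The merged 3p arm of Mir199a-1, Mir199a-2 and Mir199b, a miRNA of mesenchymal and stromal cells, fell by 6.29 (log2, SE 0.32, edgeR adjusted p = 1.11e-10), and Mir214-3p, made from the same transcript as Mir199a-2, fell by 6.35 (SE 0.61). These were the 2 that passed in E14 alone, at -6.27 and -6.39. Other arms of the list had positive changes that did not pass, such as Mir155-5p (1.40), Mir222-3p (0.94) and Mir221-3p (0.87). The list summed to 39759 and 23932 RPM in BG5 non-PGCLC, against 2041 to 5014 RPM in the other 8 libraries. The BG5 contrast of the miR-200 arms was thus made against libraries rich in mesenchymal miRNAs, and the part of this in the miR-200 result was not tested. In bulk samples fewer cells of a type and less RNA per cell cannot be told apart.

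Markers of further cell types were low. The erythroid miRNAs had no read in any library, and the muscle miRNAs had reads in 1, at 3.10 RPM. Endothelial Mir126a summed to 12.1 to 132 RPM, the white blood cell list to 1.94 to 82.5 RPM, the liver list to at most 59.1 RPM and the neural list to at most 310 RPM. In these lists 0 arms passed over both lines by edgeR or DESeq2. None had an unadjusted p under 0.05 by edgeR, beside 130 of all 558 arms. Within the lines 0 passed by edgeR. In BG5 2 of the 4 neural arms had an unadjusted p under 0.05 by edgeR, beside 116 of all 558 arms. DESeq2 called 1 there, the merged 3p arm of Mir9-1, Mir9-2 and Mir9-3, as higher (adjusted p = 0.00785), beside 21.1% of all arms. The neural list summed to 310.02 and 229 RPM in BG5 mPGCLC against 42.6 and 53.9 RPM in BG5 non-PGCLC, and its part in the miR-200 result was not tested. In E14 DESeq2 called 1 white blood cell arm, Mir223-3p, as higher (adjusted p = 0.00523), beside 3.41% of all arms that it called higher there. The miR-290 cluster is high in ESCs and early germ cells. Over both lines 12 of its 14 arms were higher in mPGCLC by edgeR, beside 14.5% of all arms. In E14 alone 0 of 14 passed by edgeR, beside 2.87% of all arms, and 0 passed by DESeq2. There 8 of the 14 had an unadjusted p under 0.05 by edgeR, beside 71 of all 558 arms. In BG5 non-PGCLC the cluster was at 7803 and 9058 RPM, below every other library. The miR-302 cluster, typical of primed pluripotent cells, had 3 of 8 arms higher over both lines by edgeR, beside 14.5% of all arms, and summed to 5088 and 4878 RPM in BG5 mPGCLC, against 75.6 to 443 RPM in the other 8 libraries.

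The arms outside the family whose profile over the 10 libraries was most like that of the summed 3p arms were found by the root mean square difference of centred log2(RPM + 1) values among 550 arms. They were the merged 3p arm of Mir92-1 and Mir92-2 with 0.461, Mir363-3p with 0.473, Mir148b-3p with 0.505, Mir466g-3p with 0.515 and Mir93-5p with 0.604. Mir363-3p, for instance, had group means of 326 RPM in BG5 mPGCLC, 272 in SGET non-PGCLC, 178 in E14 mPGCLC, 105 in E14 non-PGCLC and 78.3 in BG5 non-PGCLC.

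Read ends were examined for the 3 arms with at least 100 reads in each of the 8 E14 and BG5 libraries. Their shares are not fixed by the level, but they can rest on few distinct sequences. The 5′ end, which sets the seed, was nearly fixed. Over all libraries 95.8% of Mir200c-3p reads, 95.7% of Mir200b-3p reads and 92.9% of Mir200a-3p reads began at the annotated base. In BG5 non-PGCLC replicate 1, only 61.0% of Mir200a-3p reads did, and in BG5 mPGCLC replicate 1 80.6% did. A difference between the cell types in the 5′ start did not pass for any of the 3 arms (exact permutation test, p of at least 0.286).

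The 3′ end varied. The most frequent reads of Mir200c-3p and Mir200b-3p are shown with bases that do not match the hairpin in capitals, since these additions are what the next comparison counts.
Mir200c-3p, 58.6% of its reads: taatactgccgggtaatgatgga
Mir200c-3p, 12.4%: taatactgccgggtaatgatggaA
Mir200c-3p, 1.91%: taatactgccgggtaatgatggaAA
Mir200b-3p, 50.9%: taatactgcctggtaatgatgac
Mir200b-3p, 6.71%: taatactgcctggtaatgatgacA
Mir200b-3p, 5.20%: taatactgcctggtaatgatgacT
The leading Mir200c-3p read was the annotated 23-nt form. The leading Mir200b-3p read was 1 base longer than the annotated 22-nt form, and that base matches the hairpin.

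Mir200c-3p carried fewer untemplated bases in mPGCLCs of E14 and BG5. The share of its reads with such bases was 19.1% and 16.5% in E14 mPGCLC against 25.3% and 33.2% in E14 non-PGCLC. It was 13.9% and 16.7% in BG5 mPGCLC against 29.0% and 21.9% in BG5 non-PGCLC. The 4 mPGCLC libraries were all below the 4 non-PGCLC libraries, by 10.8 percentage points on average. The two-sided exact permutation test gave p = 0.0286, the smallest that 70 arrangements allow, and 0.157 after adjustment over 11 tests. With arrangements kept within lines p was 0.0556, again the smallest possible. In SGET non-PGCLC the shares were 16.1% and 13.2%, within or below the range of the mPGCLC values, so a low share was not particular to mPGCLCs.

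The mean length of Mir200c-3p reads was also lower in the mPGCLC libraries. It takes in the untemplated bases, so it is not independent of their share. It was 22.90 ± 0.07 nt (SD, n = 4) in mPGCLC and 23.10 ± 0.07 nt in non-PGCLC of the 2 lines (exact permutation test, p = 0.0286, adjusted 0.157). In SGET non-PGCLC it was 22.85 nt in both replicates. For Mir200b-3p the untemplated share was 16.4% ± 4.49 (SD, n = 4) in mPGCLC and 22.01% ± 10.6 in non-PGCLC, which overlapped (exact permutation test, p = 0.400). The differences between the cell types were 4.24 percentage points in E14 and -15.5 in BG5.

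**Figure D4:**
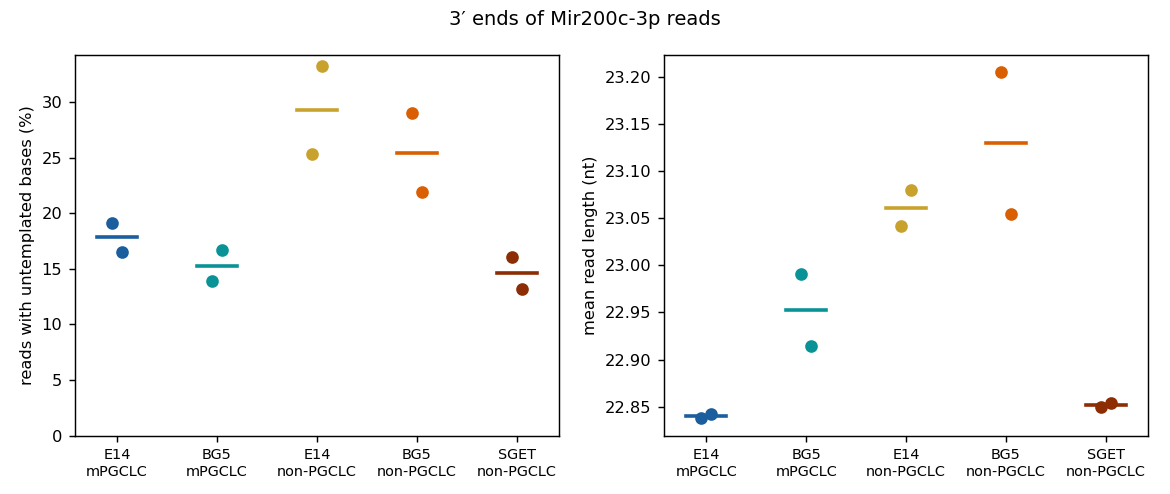
Dots give, for each library, the share of Mir200c-3p reads with untemplated bases (left) and their mean length in nt (right), with lines for the group means of 2 libraries. E14 and BG5 non-PGCLC lie above the mPGCLC groups in both panels, and SGET non-PGCLC lies with the mPGCLC groups.

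The balance of the arms showed no difference that passed between the cell types. The log2 ratio of 5p to 3p reads was -5.05 ± 0.998 (SD, n = 4) for Mir200b in mPGCLC and -4.65 ± 1.28 in non-PGCLC (exact permutation test, p = 0.600), and for Mir200a the difference was 3.16 (p = 0.343). For Mir200a, 2 non-PGCLC libraries had no 5p read, and their ratios of -11.7 and -10.7 were set by a small constant added to each count.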

How the data were processed

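Small RNA was sequenced from 10 samples in 5 groups of 2. Per the labels and methods, the authors trimmed reads with cutadapt 3.2, removed the random bases at the read ends, mapped reads to GRCm38 with STAR 2.5.3a with up to 2 mismatches end to end, and deposited raw counts per distinct read sequence. Longer added tails were therefore lost, and any PCR copies remain, since the random bases did not serve as identifiers. Reads from 2 instrument types were joined per library, in parts that are not given in the sources used here.

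Reads were matched to GENCODE vM21 hairpins, and arms that shared over 10% of their reads were merged. Arms were compared by edgeR 4.0.16 (quasi-likelihood, R 4.3.3) over all 10 samples with 5 group means, filterByExpr, TMM scaling on file totals, and Benjamini-Hochberg adjustment over 558 arms, with a threshold of 0.05. SE is the absolute log2 change over the square root of F. Read features were compared by exact permutation (Python 3.11.15). The code was tested on simulated data. All arms of the 5 hairpins were named whatever they showed, and members and lists were chosen with earlier results of these data known. Alternatives were DESeq2 1.42.0, other scalings, filters, samples and read matches, the replicate number as a block, and each library left out. Library totals of 7421061 to 14444567 reads limit the precision, and floors for 0 reads cover counting error only.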

Additional observations from a re-analysis of the deposited data

How the results depend on the processing

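Over both lines the calls of Mir200b-3p (log2 change 1.26 to 1.70) and Mir200c-3p (0.93 to 1.36) held under all 17 alternatives, and Mir429-3p was gained under 13. None of the 17 scaled to the sum of miRNA reads, by which the E14 groups overlapped for Mir200b-3p and Mir200c-3p. Neither of these 2 arms passed in E14 alone. The counts of members called moved elsewhere, for causes that were not tested. Fits with a library left out tested 687 to 714 arms, since a group of 1 library loosens the low-count filter. The share of all arms called is given in brackets. In E14 the count was 1 with DESeq2 (3.41% higher, 6.63% lower) and 0 to 1 with a library left out (2.01% to 5.10%). In BG5 it was 1 with total reads (12.2%) and 2 to 4 under the other alternatives (10.01% to 21.1%), 4 with DESeq2 (21.1%), which added Mir141-3p as lower. Mir429-3p was gained in BG5 under 11 of 17. For the line difference it was 2 with DESeq2 (8.42% positive, 5.56% negative), 1 with only the samples compared (7.55%) and 0 to 2 with a library left out (4.66% to 7.98%). Between mPGCLC lines it was 1 with DESeq2 (17.9%), 1 with only the samples compared (17.6%) and 0 to 1 with a library left out (7.71% to 10.6%). Among non-PGCLC lines it was 2 with DESeq2 (28.0%), 2 without the low-count filter (17.9%) and 2 to 3 with a library left out (16.3% to 22.4%). With the replicate block the counts were 1 (7.89%), 1 (12.4%) and 2 (23.3%) for these last 3 comparisons, 3 over both lines (15.9%) and 4 in BG5 (15.4%), so the share of all arms called rose as well. Same-numbered samples did not deviate together across arms (r = -0.05 in E14 and -0.0039 in BG5). With 2 replicates per group, this cannot show whether the numbers pair the samples.

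Signs that turned belonged to results that had not passed by edgeR. Over both lines Mir141-3p was -0.035 with DESeq2, -0.16 with total reads and -1.10 to 4.87 with a library left out, and in BG5 it was -9.45 to 2.52 (the latter without BG5 non-PGCLC replicate 1). In E14 with a library left out, Mir200a-3p was -0.69 to 0.85, Mir200a-5p -0.78 to 8.87 and Mir200b-5p -1.55 to 1.85, and Mir200a-3p was 0.011 with total reads. The difference in Mir200b-3p mean length was -0.27 to 0.020 nt with a library left out, turning without BG5 non-PGCLC replicate 1. The difference in the share at the main 5′ start was -8.31 to 5.14 percentage points for Mir200a-3p and -0.71 to 0.29 for Mir200c-3p with a library left out, and 0.11 for Mir200c-3p with reads of 20 to 24 nt. With pairs by replicate number as a block, the exact sign-flip p for Mir200c-3p tails was 0.125, the smallest possible.

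Scaled to miRNA reads in place of all reads, the summed level per 1000000 reads was 5897 in E14 mPGCLC, 20576 in BG5 mPGCLC, 5590 in E14 non-PGCLC, 5365 in BG5 non-PGCLC and 9219 in SGET non-PGCLC. With whole-length matches it was 1626, 889, 1049 and 2455 RPM in E14 mPGCLC, E14 non-PGCLC, BG5 non-PGCLC and SGET non-PGCLC. The counts of Mir141-3p rest on few distinct sequences and may stand for few RNA molecules. How depth limits each arm was not tested.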

Other observations

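The base added to the 3′ end differed in kind between the arms, summed over the 10 libraries and given as values with no test. Libraries varied, for instance from 0.31% to 11.3% of Mir200a-3p reads with untemplated bases. A U added to the annotated Mir200a-3p form matches the hairpin and so counts as templated. Of Mir200c-3p reads at the main start, 13.2% ended in 1 untemplated A and 2.10% in 1 untemplated U, written as T in the reads. Mir200b-3p had 8.58% with A and 5.98% with U. Mir429-3p had 0.0845% with A and 2.01% with U, and Mir200a-3p had 0.128% with A and 0.830% with U. Mir141-3p had 16.3% with U, nearly all of it the 280 copies of 1 sequence in BG5 non-PGCLC replicate 1. Mir200a-5p and Mir200b-5p had 10.5% and 14.2% with A.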
